A study of Arabidopsis thaliana with 12 samples.

Results

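TPS12 (AT4G13280), CYP71A19 (AT4G13290), TPS13 (AT4G13300) and CYP71A20 (AT4G13310) are 4 neighbouring loci on Arabidopsis thaliana chromosome 4, a pair of terpene synthases interleaved with a pair of cytochrome P450s. The set was chosen by the mutant against Col-0 levels of TPS12 and CYP71A19, which stand much higher in the mutant, and it makes up 4 of the 32833 gene entries in the count table. Only 2 of them, TPS12 and CYP71A19, had any reads, and both are among the 16238 genes with enough reads to be tested. The mutant against Col-0 values of the 4 loci are therefore given as a description, without a test. The contrasts between tissues were not used in the choice and were tested. The difference of the mutant effect between tissues was tested too. It is formed from the mutant against Col-0 values of both tissues, so its test is not independent of the choice.

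RNA was sequenced from hand-dissected mature seeds of the Atsdr4l-5 dig2 double mutant and of Col-0, the wild type. The 4 groups were mutant seed coat, Col-0 seed coat, mutant embryo and Col-0 embryo, with 3 biological replicates each and 12 libraries in all. The seed coat samples carry the endosperm. Plants grew under 16 h of light and 8 h of dark, seeds were collected about 18 days after pollination, and all groups shared 2 days of storage at room temperature and 1 to 2 h in water before dissection. What kind of lesion dig2 is, no source used here says. Mutant libraries still held DIG2 (AT5G50360) reads, at 106.1 to 165.4 CPM (read counts scaled to library size) in the seed coat against 103.0 to 199.0 CPM in Col-0, and at 115.5 to 144.4 CPM in the embryo against 76.3 to 194.5 CPM in Col-0. The reference names no locus AtSDR4L, so that gene was not checked.

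Terpene synthases turn prenyl diphosphates, made by the mevalonate pathway in the cytosol and by a separate pathway in plastids, into the carbon skeletons of terpenes. Cytochrome P450s of the CYP71 clan commonly oxidise such skeletons, and in plant genomes genes for both kinds of enzyme often lie side by side. TPS12 and TPS13 belong to the branch of the family that uses farnesyl diphosphate to make sesquiterpenes, and both have been described from roots as bisabolene synthases.

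The 4 loci fill 20097 bases. On the TAIR10.1 annotation TPS12 lies at chr4:7733114-7736745 on the minus strand (7 exons), CYP71A19 at chr4:7740283-7743135 on the plus strand (4 exons), TPS13 at chr4:7742871-7746394 on the minus strand (7 exons) and CYP71A20 at chr4:7750305-7753210 on the plus strand (4 exons). Each synthase thus starts back to back with a P450: 3537 bases separate the starts of TPS12 and CYP71A19, and 3910 bases separate those of TPS13 and CYP71A20. The coding sequences of TPS12 and TPS13 are identical at 93.5% of 1665 aligned positions, and those of CYP71A19 and CYP71A20 at 89.2% of 1497.

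The 250 bases before each annotated start are shown because 2 of these windows precede a gene with reads and the other 2 precede its closely similar copy without reads. They were read from the RefSeq TAIR10.1 genome at chr4:7736746-7736995 (minus strand) for TPS12, chr4:7740033-7740282 (plus strand) for CYP71A19, chr4:7746395-7746644 (minus strand) for TPS13 and chr4:7750055-7750304 (plus strand) for CYP71A20. Capitals mark matches, on either strand, to the RY element (CATGCA) and the W-box core (TTGAC). These are the letters bound by B3-domain factors of seed maturation and by WRKY factors in general, which is background and not a result here.
TPS12: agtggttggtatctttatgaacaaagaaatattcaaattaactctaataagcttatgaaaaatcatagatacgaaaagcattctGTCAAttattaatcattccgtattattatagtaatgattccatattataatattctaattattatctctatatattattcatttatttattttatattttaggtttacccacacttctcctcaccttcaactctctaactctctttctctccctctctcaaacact
CYP71A19: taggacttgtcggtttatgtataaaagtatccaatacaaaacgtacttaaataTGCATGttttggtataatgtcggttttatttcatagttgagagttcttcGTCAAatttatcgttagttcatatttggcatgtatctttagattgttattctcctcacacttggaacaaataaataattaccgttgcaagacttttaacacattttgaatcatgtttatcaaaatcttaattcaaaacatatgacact
TPS13: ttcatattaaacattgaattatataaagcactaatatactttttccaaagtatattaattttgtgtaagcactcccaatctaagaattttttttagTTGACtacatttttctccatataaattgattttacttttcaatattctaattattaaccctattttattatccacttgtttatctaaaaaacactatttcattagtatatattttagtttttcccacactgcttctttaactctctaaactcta
CYP71A20: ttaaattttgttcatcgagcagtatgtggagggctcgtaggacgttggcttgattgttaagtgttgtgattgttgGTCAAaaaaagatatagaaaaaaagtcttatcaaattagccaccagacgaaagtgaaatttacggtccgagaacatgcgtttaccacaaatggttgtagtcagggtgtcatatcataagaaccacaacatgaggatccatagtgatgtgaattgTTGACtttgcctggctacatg

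The RY element was found only in the CYP71A19 window among these 4, once, with its first printed base 197 bases before the start. Over 27444 windows of the same length before annotated starts, 8.43% held it. The W-box core was found once before TPS12, once before CYP71A19, once before TPS13 and at 2 places before CYP71A20, and 44.9% of all windows held it. The core of the abscisic acid response element (ACGTG), in 22.9% of all windows, and the G-box (CACGTG, which contains that core), in 6.49%, had no match in any of the 4 windows. A match or its absence says only which letters are in these windows. Nor do the windows cover like positions. The annotated start lies 0 bases before the coding start in TPS12, 398 in CYP71A19, 31 in TPS13 and 148 in CYP71A20.

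Within each pair of closely similar copies, all reads fell on 1 gene. TPS13 and CYP71A20 had 0 reads on their own strand in each of the 12 libraries, or 0 of 174798274 gene reads, which allows up to 0.0172 CPM for each. On the opposite strand they had 0 to 1 reads per library and 2 each in total. Taking 3 reads in each library as the floor, and per kilobase of exon, TPS12 was at least 312-fold to 360-fold higher than TPS13 across the mutant seed coat libraries and at least 8.92-fold to 21.8-fold across Col-0 seed coat. The same bound was 359-fold to 534-fold across mutant embryo and 19.8-fold to 23.8-fold across Col-0 embryo. For CYP71A19 over CYP71A20 it was 315-fold to 327-fold in mutant seed coat, 48.8-fold to 85.0-fold in Col-0 seed coat, 193-fold to 275-fold in mutant embryo and 9.98-fold to 16.0-fold in Col-0 embryo. Bounds and limits of this kind cover counting error only.

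The similarity of the copies leaves most of each gene open to unambiguous counting. Of all 50-base windows within exons, 93.9% in TPS12, 96.3% in CYP71A19, 93.9% in TPS13 and 95.6% in CYP71A20 occur once in the genome. At 100 bases the share was 100% for both synthases, 98.5% for CYP71A19 and 98.2% for CYP71A20.

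**Figure D1:**
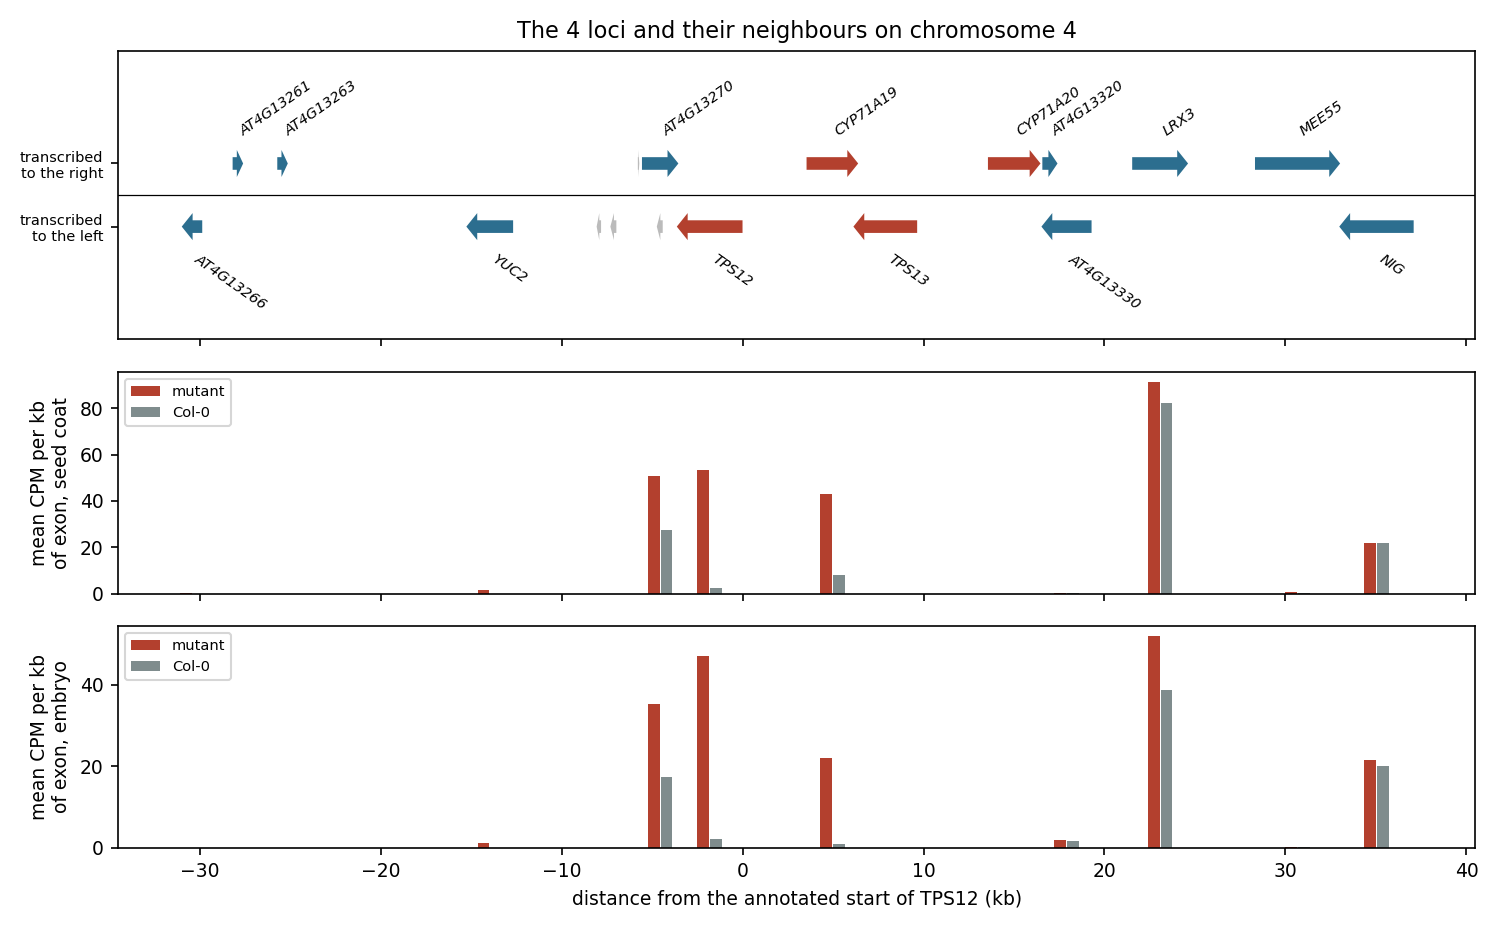
Map of the 4 loci (red arrows) and the neighbouring loci (blue, protein-coding; grey, other kinds), against distance in kb from the annotated start of TPS12, with arrows pointing in the direction of transcription. Bars give the mean CPM per kb of exon over 3 libraries in the seed coat (middle) and the embryo (bottom), mutant left of Col-0: TPS12 and CYP71A19 stand far higher in the mutant, while TPS13 and CYP71A20 have no bar in either genotype.

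TPS12, the expressed terpene synthase, stood more than 20-fold higher in the mutant in both tissues. Its read counts were 946, 1091 and 1008 in mutant seed coat, against 56, 66 and 27 in Col-0 seed coat. In the embryo it had 1317, 1087 and 1618 reads in the mutant, against 72, 71 and 60 in Col-0. Every mutant library lay far above every Col-0 library, a separation that the choice of the gene by these levels favours. Scaled to library size, TPS12 had 91.2, 97.3 and 84.6 CPM in mutant seed coat (mean 91.0 ± 6.35, SD, n = 3), against 3.73, 4.98 and 2.83 CPM in Col-0 seed coat (3.85 ± 1.08). It had 73.8, 72.2 and 95.5 CPM in mutant embryo (80.5 ± 13.0), against 3.46, 3.82 and 3.38 CPM in Col-0 embryo (3.55 ± 0.235). The fitted difference, mutant minus Col-0, was log2 4.54 (SE 0.18, 23.3-fold) in the seed coat and log2 4.50 (SE 0.17, 22.6-fold) in the embryo. For comparison, 0.567% of the genes tested had a log2 fold change at least as high in the seed coat, and 0.585% in the embryo.

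CYP71A19, the expressed P450, was also higher in the mutant in both tissues, but its level in Col-0 depended on the tissue. It had 1106, 1114 and 1146 reads in mutant seed coat, against 298, 243 and 171 in Col-0 seed coat. In the embryo it had 964, 675 and 951 reads in the mutant, against 40, 35 and 56 in Col-0. The genotypes did not overlap in either tissue, which the choice of the gene by these levels favours. Its level was 106.6, 99.3 and 96.2 CPM in mutant seed coat (100.7 ± 5.36), against 19.9, 18.3 and 17.9 CPM in Col-0 seed coat (18.7 ± 1.03). It was 54.0, 44.8 and 56.1 CPM in mutant embryo (51.7 ± 6.0), against 1.92, 1.88 and 3.16 CPM in Col-0 embryo (2.32 ± 0.724). The fitted difference, mutant minus Col-0, was log2 2.43 (SE 0.15, 5.37-fold) in the seed coat and log2 4.48 (SE 0.17, 22.3-fold) in the embryo, with 2.94% and 0.591% of tested genes at or above these values. In tissue samples like these, fewer cells that carry a transcript and less of it per cell cannot be told apart.

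Per kilobase of exon, TPS12 ordered as mutant seed coat (53.2 ± 3.71 CPM per kb), mutant embryo (47.0 ± 7.61), Col-0 seed coat (2.25 ± 0.631) and Col-0 embryo (2.07 ± 0.138). Its 2 mutant groups overlapped each other, as did its 2 Col-0 groups. CYP71A19 came in the same order, at 43.1 ± 2.29, 22.1 ± 2.57, 8.01 ± 0.440 and 0.993 ± 0.310 CPM per kb, but no group overlapped the next. How many of all genes separate in this way was not counted.

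**Figure D2:**
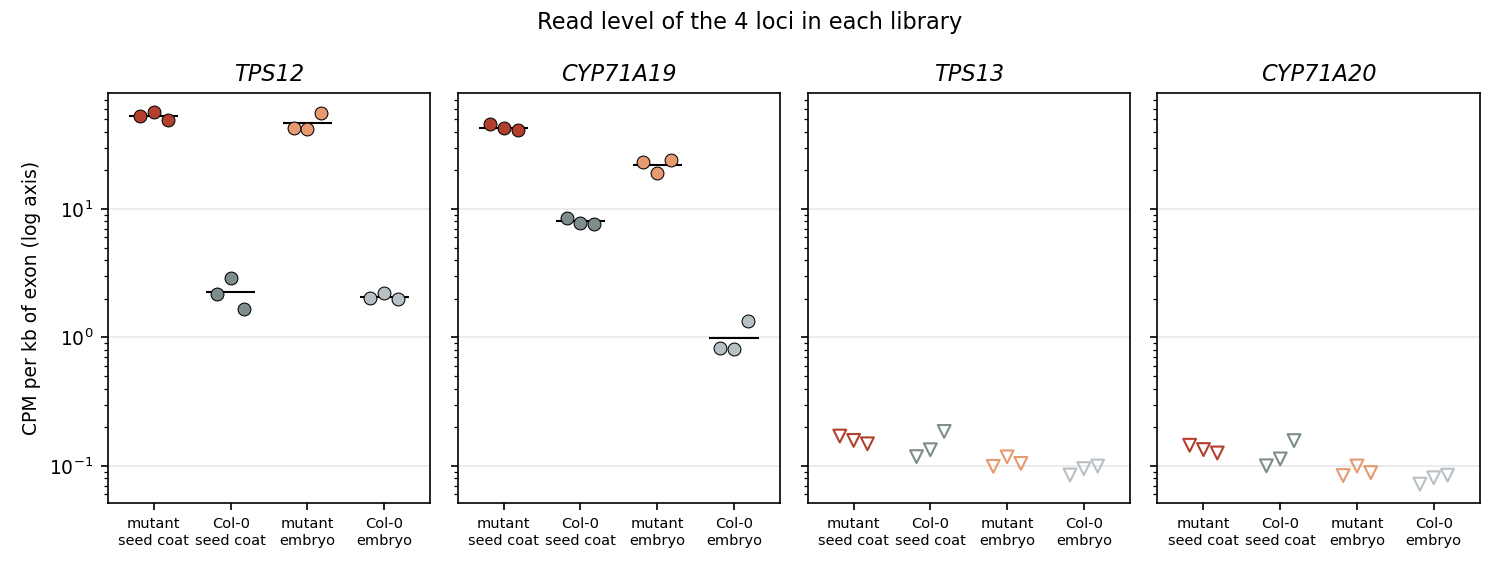
CPM per kb of exon (log axis) of the 4 loci in each of the 12 libraries, with filled circles for measured levels and lines for the mean of 3 libraries. Open triangles stand at the level that 3 reads would give, where the library had 0 reads. TPS12 falls into a mutant and a Col-0 level with the tissues overlapping, CYP71A19 into 4 separate levels, and TPS13 and CYP71A20 show triangles only.

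CYP71A19 was higher in the seed coat than in the embryo in both genotypes, and TPS12 passed the test for a tissue contrast in neither. Over all tested genes, 34.9% were called in the mutant (16.9% higher and 18% lower in seed coat than in embryo) and 46.6% in Col-0 (24.4% higher and 22.2% lower). In the mutant, CYP71A19 was 1.95-fold higher in seed coat than in embryo (log2 0.96, SE 0.14, adjusted p = 0.000196, edgeR quasi-likelihood test with Benjamini-Hochberg adjustment over all genes tested). In Col-0 it was 8.10-fold higher in seed coat than in embryo (log2 3.02, SE 0.17, adjusted p = 3.78e-08, same edgeR test). TPS12 did not pass: seed coat minus embryo was log2 0.18 in the mutant (95% interval -0.13 to 0.49, edgeR adjusted p = 0.37) and log2 0.13 in Col-0 (-0.27 to 0.54, edgeR adjusted p = 0.585). With libraries scaled by total reads only, these TPS12 values were -0.23 and -0.34, under a scaling that moved the median of all genes to -0.43 and -0.46.

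The mutant effect itself differed between tissues for CYP71A19, in a test that is not independent of the choice of this gene. The difference of the 2 effects, seed coat minus embryo, was log2 -2.06 (SE 0.22, 95% interval -2.53 to -1.58, edgeR adjusted p = 0.000217), with 5.74% of all genes tested called for this difference in either direction, 2.02% higher and 3.72% lower. The gene was higher in the mutant in both tissues, so it is the size of the gap that differed. For TPS12 the same difference was log2 0.04 (-0.47 to 0.56, edgeR adjusted p = 0.949), an interval of 0.720-fold to 1.47-fold.

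**Figure D3:**
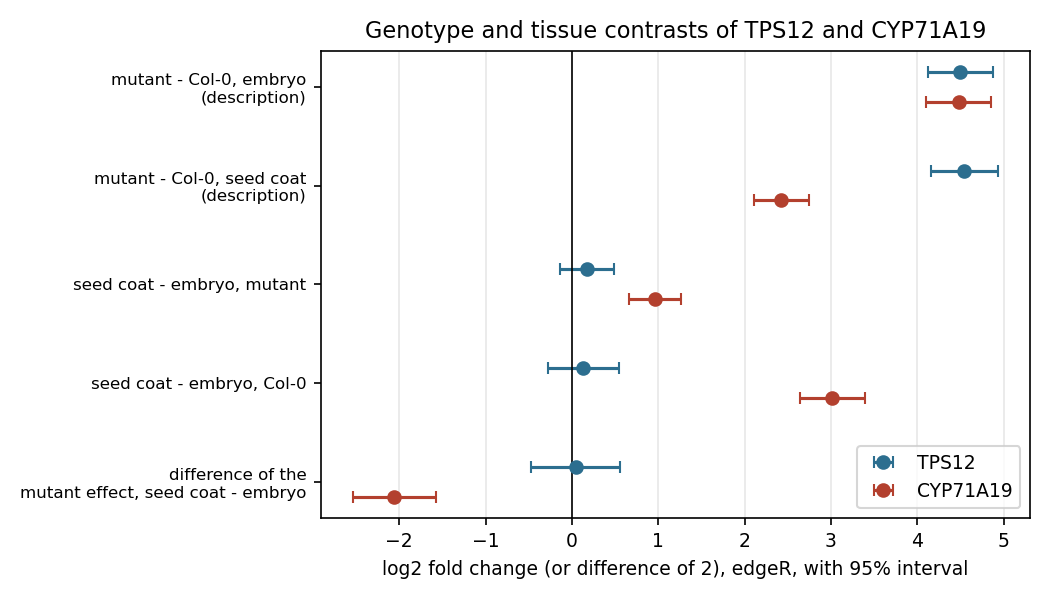
Log2 fold changes of TPS12 (blue) and CYP71A19 (red) from edgeR, with 95% intervals, for the mutant against Col-0 in each tissue (description only), for seed coat against embryo in each genotype, and for the difference of the mutant effect between tissues. The TPS12 tissue contrasts span 0, whereas those of CYP71A19 lie at 0.96 and 3.02 and its difference at -2.06.

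The ratio of TPS12 to CYP71A19 within a library, which does not depend on library scaling, was lower in every seed coat library than in every embryo library of the same genotype. Per kilobase it was 1.17, 1.34 and 1.20 in mutant seed coat and 1.86, 2.20 and 2.32 in mutant embryo. In Col-0 it was 0.256, 0.371 and 0.215 in seed coat and 2.46, 2.77 and 1.46 in embryo. TPS12 thus exceeded its neighbour per length in 9 of the 12 libraries, all but those of Col-0 seed coat. In each mutant seed coat library TPS12 had fewer reads than CYP71A19. Its excess there rests on the annotated exon lengths, 1712 bases for TPS12 and 2336 for CYP71A19. The geometric means were 1.23 in mutant seed coat against 2.12 in mutant embryo, and 0.274 in Col-0 seed coat against 2.15 in Col-0 embryo. Seed coat and embryo did not overlap in either genotype, and the exact permutation test gave p = 0.1 (two-sided, n = 3 each) for each, the smallest p that 3 against 3 libraries allow.

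**Figure D4:**
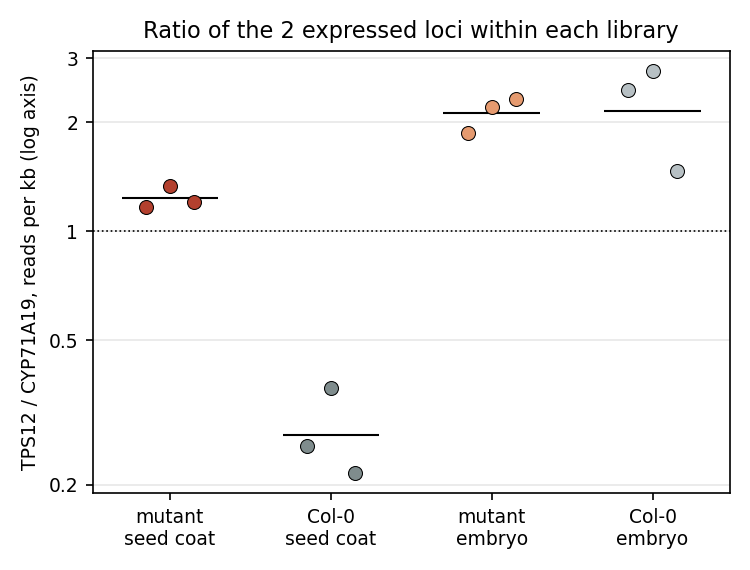
Ratio of TPS12 to CYP71A19, in reads per kb of exon, within each of the 12 libraries (points, log axis) with the geometric mean of each group (lines) and equality (dotted line). With the annotated exon lengths, the 3 Col-0 seed coat libraries lie at 0.215 to 0.371, below 1, and the other 9 lie above 1.

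Tissue markers differed between the tissues in both directions. The summed level of 10 endosperm markers ranged over 184469 to 202381 CPM in mutant seed coat against 288 to 405 CPM in mutant embryo, and over 134942 to 164736 CPM in Col-0 seed coat against 224 to 265 CPM in Col-0 embryo. In the seed coat nearly all of it was EPR1, an endosperm cell wall protein gene. Of 4 tested endosperm markers, 1 was called higher and 0 lower in seed coat than in embryo of the mutant, and 2 higher and 0 lower in Col-0 (edgeR). Over all tested genes the shares were 16.9% higher and 18% lower in the mutant, and 24.4% higher and 22.2% lower in Col-0. NCED6, an enzyme of abscisic acid synthesis, averaged 12.7 CPM in seed coat against 20.8 CPM in embryo of the mutant. AT4G18650, another marker of the list, averaged 143.7 CPM in seed coat against 157.7 CPM in embryo of the mutant, and 42.7 CPM in seed coat against 59.8 CPM in embryo of Col-0. The markers RGE1, FWA, MEA, FIS2, PHE1 and EXPA2 were at 0 in both embryo groups, and averaged at most 0.447 CPM in either seed coat group. The 10 seed coat markers summed to 25.9 to 27.4 CPM in mutant seed coat against 6.83 to 9.30 CPM in mutant embryo, and to 18.0 to 20.8 CPM in Col-0 seed coat against 8.54 to 10.4 CPM in Col-0 embryo. BAN, a gene of tannin synthesis, was at or near 0 in embryo, whereas GL2 averaged 0.618 CPM in Col-0 seed coat against 2.21 CPM in Col-0 embryo, and MUM2 averaged 0.0252 CPM in Col-0 seed coat against 0.680 CPM in Col-0 embryo. Of 5 tested seed coat markers, 3 were called higher and 0 lower in the seed coat of the mutant, and 2 higher and 1 lower in that of Col-0. Among them, BAN and TT10 passed the filter on low counts only through seed coat groups. A call of either as higher there was therefore fixed by that filter.

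Of 8 tested embryo markers, 5 were called lower and 1 higher in seed coat than in embryo of the mutant (median log2 -2.13), and 6 lower and 2 higher in Col-0 (median log2 -0.97). PLT1, PLT2 and STM passed the filter on low counts only through embryo groups, with at most 6 reads summed over a seed coat group. Any call of these as lower in the seed coat was therefore fixed by that filter, and the medians include them. PHB, a patterning factor, averaged 1.09 CPM in seed coat against 13.2 CPM in embryo of the mutant. The list's summed level went the other way, at 145.5 CPM in seed coat against 105.3 CPM in embryo of the mutant and 182.5 CPM in seed coat against 108.2 CPM in embryo of Col-0. ATML1, an epidermal factor, held most of the seed coat sum, at 102.8 CPM in mutant seed coat and 123.9 CPM in Col-0 seed coat. WOX8 was at 0 in all 12 libraries. The part of these tissues in the level of TPS12 or CYP71A19 was not tested.

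Between genotypes, 48.4% of all tested genes were called in the seed coat (24.8% higher and 23.5% lower in the mutant) and 46.9% in the embryo (25.4% higher and 21.4% lower). Beside these shares, 3 of 4 tested endosperm markers were called higher in the mutant in the seed coat and 2 of 4 in the embryo (edgeR), with none lower. Of 5 tested seed coat markers 2 were higher in the seed coat and 1 was lower in the embryo, and of 8 tested embryo markers 4 were lower in the seed coat, and 2 were higher and 4 lower in the embryo. PLT2 passed the filter on low counts only through Col-0 embryo, with 95 reads there against 16 in mutant embryo. Its call as lower in the embryo was therefore fixed by that filter.

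Reads on the opposite strand of the pair were fewer than those on its own strand in every library. Summed over all genes, 94.4% to 96.4% of the reads on both strands of a library fell on the gene's own strand. TPS12 had 42 to 54 such reads in mutant seed coat against 6 to 20 in Col-0, and 43 to 53 in mutant embryo against 12 to 14 in Col-0. They were 3.88% to 5.40% of the reads on both strands in mutant seed coat against 18.2% to 26.3% in Col-0, and 2.59% to 4.65% in mutant embryo against 14.5% to 18.9% in Col-0. The end of TPS12 shares 88 bases with the end of AT4G13270, which is transcribed on that strand, and how many of these reads belong to it was not tested. CYP71A19 had 1 to 33 opposite-strand reads per library. The end of CYP71A19 shares 265 bases, or 11.3% of its exon length, with the last exon of TPS13, yet beside 6799 reads counted for CYP71A19 only 2 reads over all libraries were placed on its strand within TPS13 exons.

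Along the chromosome, the nearest neighbour of TPS12 was also higher in the mutant. Among the 5 loci on each side, 5 of 10 had enough reads to be tested, 1 of them was called higher and 0 lower in each tissue (edgeR). In the seed coat 2 were called higher without mutant seed coat library 3, the second being MEE55 (log2 1.26, edgeR adjusted p = 0.0433). Over all genes 24.8% were called higher and 23.5% lower in the seed coat, and 25.4% higher and 21.4% lower in the embryo. The locus called was AT4G13270, annotated as a late embryogenesis abundant hydroxyproline-rich glycoprotein. It averaged 52.5 ± 2.41 CPM in mutant seed coat against 28.3 ± 3.70 CPM in Col-0 seed coat (log2 0.90, edgeR adjusted p = 2.14e-05), and 36.6 ± 1.68 CPM in mutant embryo against 18.2 ± 1.47 CPM in Col-0 embryo (log2 1.01, edgeR adjusted p = 8.77e-06). On the other side AT4G13330, LRX3, a cell wall extensin gene, MEE55 and NIG gave log2 values of -0.41, 0.15, 0.85 and 0.02 in the seed coat and 0.22, 0.42, 0.36 and 0.11 in the embryo, none of which passed (edgeR adjusted p 0.193 to 0.865 in the seed coat and 0.38 to 0.711 in the embryo). The other 5 of these loci had 0 reads in all 12 libraries. Counting 5 protein-coding loci on each side instead, a choice made after the values were seen, brought in YUC2, an enzyme of auxin synthesis, with 37, 26 and 53 reads in mutant seed coat against 0 in all 3 Col-0 seed coat libraries. YUC2 had 51, 29 and 49 reads in mutant embryo against 0, 1 and 2 in Col-0 embryo. It passed the filter on low counts only through the mutant groups, where it is high, so its call as higher was fixed by that filter.

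Among the other 32 terpene synthases, 15 had any reads and 3 were tested, of which GA2 and AT1G70080 were called higher in the mutant in both tissues. Over all tested genes, 24.8% were called higher in the seed coat and 25.4% in the embryo. GA2, the ent-kaurene synthase of gibberellin synthesis, averaged 30.6 ± 3.48 CPM in mutant seed coat against 6.74 ± 1.06 CPM in Col-0 seed coat (edgeR adjusted p = 3.25e-07), and 38 ± 3.1 CPM in mutant embryo against 9.42 ± 1.42 CPM in Col-0 embryo (log2 2.01, edgeR adjusted p = 4.12e-07). AT1G70080 averaged 1.72 ± 0.488 CPM in mutant seed coat against 0.244 ± 0.244 CPM in Col-0, and 16.2 ± 0.899 CPM in mutant embryo against 3.69 ± 1.90 CPM in Col-0 (edgeR adjusted p = 0.00172 in the seed coat and 0.000135 in the embryo). AT4G20230 had 162 reads over the 3 mutant seed coat libraries against 1 in Col-0, and 62 in mutant embryo against 0 in Col-0 embryo, so it passed the filter on low counts only through the mutant groups and its call as higher is no support for a direction of the family. Set against the whole family per kilobase, TPS12 was the most abundant of 34 synthases in both mutant groups and the next after GA2 in both Col-0 groups. It made up 77.5 ± 1.12% of the family's summed level in mutant seed coat against 44.0 ± 8.18% in Col-0, and 67.0 ± 2.59% in mutant embryo against 27.3 ± 2.2% in Col-0 embryo.

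Of the other 14 CYP71A genes, 11 had reads, 4 were tested and 3 were called higher in each tissue, with none lower (median log2 1.34 in the seed coat and 1.16 in the embryo). Over all tested genes, 24.8% were called higher and 23.5% lower in the seed coat, and 25.4% higher and 21.4% lower in the embryo. CYP71A28, the tested gene that was not called, passed the filter on low counts only through mutant seed coat, and these medians include it. CYP71A15 averaged 42.0 ± 1.82 CPM in mutant seed coat against 1.01 ± 0.399 CPM in Col-0 seed coat (log2 5.43, edgeR adjusted p = 2.48e-08), and 102.1 ± 4.57 CPM in mutant embryo against 6.33 ± 2.28 CPM in Col-0 embryo (log2 4.01, edgeR adjusted p = 3.38e-08). CYP71A26, the most abundant of the subfamily per kilobase in all 4 groups, was higher in the mutant by log2 1.34 in the seed coat and 1.55 in the embryo (edgeR adjusted p = 1.34e-06 and 4.53e-07). CYP71A19 made up 21.1 ± 2.06% of the summed per-kilobase level of the 16 genes in mutant seed coat against 13.0 ± 1.02% in Col-0, and 11.3 ± 0.83% in mutant embryo against 2.33 ± 0.509% in Col-0 embryo.

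The pathways that supply prenyl diphosphates showed no shared direction. Of 15 genes of the mevalonate pathway and its branch to farnesyl diphosphate and squalene, 8 were tested: 1 was higher and 4 lower in the seed coat (median log2 -0.19), and 3 were higher and 1 lower in the embryo (median log2 -0.02). The shares over all tested genes were 24.8% higher and 23.5% lower in the seed coat, and 25.4% higher and 21.4% lower in the embryo. HMG1 and HMG2 encode the reductase of the pathway's committed step. HMG1 averaged 246.4 ± 7.55 CPM in mutant embryo against 156.5 ± 11.3 CPM in Col-0 embryo (log2 0.66, edgeR adjusted p = 0.000718), and its seed coat value of log2 0.31 did not pass. HMG2 was lower in the mutant in both tissues (log2 -1.10 in the seed coat and -0.98 in the embryo, edgeR adjusted p = 0.000444 and 0.000481). HMGS, which makes the reductase's substrate, was higher in the embryo (log2 0.54, edgeR adjusted p = 0.000853). At the entry of the pathway, the thiolases went opposite ways in the seed coat: ACAT2 was higher (log2 1.07, edgeR adjusted p = 7.35e-06) and AACT1 lower (log2 -1.03, edgeR adjusted p = 3.82e-06). The 2 farnesyl diphosphate synthases, named after their values were seen, were too low to test, with 0 to 4 reads of FPS1 and 0 to 4 reads of FPS2 per library.

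In the plastid pathway all 9 genes were tested: 3 were higher and 1 lower in the seed coat (median log2 0.14), and 4 were higher and 1 lower in the embryo (median log2 0.05). CLA1, which encodes the first enzyme, averaged 3.25 ± 0.711 CPM in mutant seed coat against 16.0 ± 4.65 CPM in Col-0 seed coat (log2 -2.31, edgeR adjusted p = 2.84e-05), and 1.20 ± 0.310 CPM in mutant embryo against 4.89 ± 1.38 CPM in Col-0 embryo (log2 -2.03, edgeR adjusted p = 0.00018). DXR, which encodes the next enzyme, was higher by log2 0.79 in the seed coat and 1.03 in the embryo (edgeR adjusted p = 0.000346 and 4.24e-05). HDR, at the last step, was higher by log2 0.63 in the seed coat and 0.44 in the embryo (edgeR adjusted p = 8.91e-05 and 0.00134). Of 12 genes of the triterpene clusters, in which an oxidosqualene cyclase lies beside its P450s, 4 had any read and none had enough to be tested. Over the 24 tested genes of these 5 lists, calls came to 10 higher and 5 lower in the seed coat and 13 higher and 2 lower in the embryo, AT4G20230 included. Over all tested genes 48.4% were called in the seed coat (24.8% higher and 23.5% lower) and 46.9% in the embryo (25.4% higher and 21.4% lower). With total reads only as the scaling they came to 10 higher and 7 lower in the seed coat and 7 higher and 10 lower in the embryo, while the median of all genes moved to -0.30 and -0.35.

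**Figure D5:**
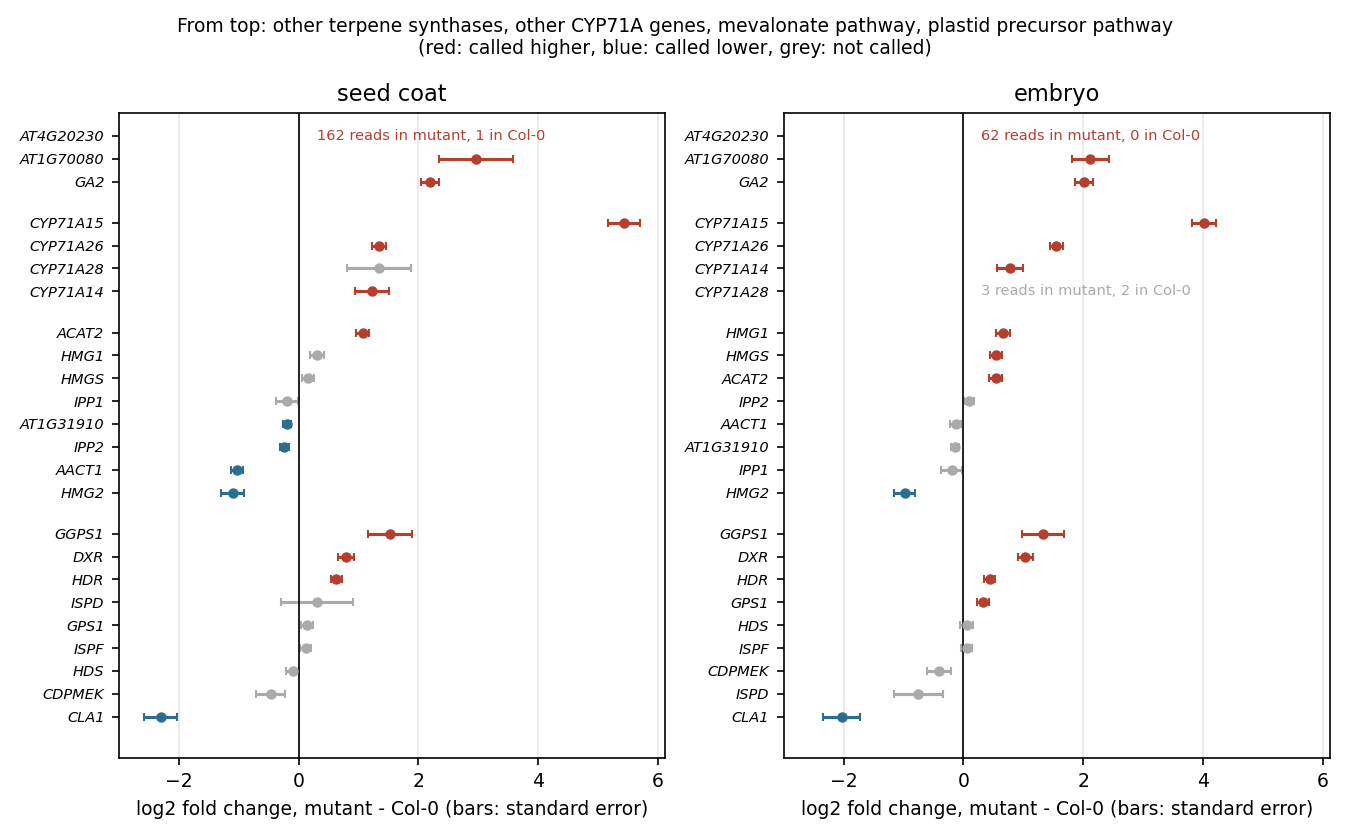
Log2 fold change, mutant minus Col-0, of each tested gene of the terpene synthase, CYP71A, mevalonate and plastid precursor lists in the seed coat (left) and the embryo (right), with bars for the standard error and colours for the call. Where Col-0 had 3 reads or fewer in all, the reads are printed in place of a fold change. GA2 and AT1G70080 lie to the right of 0, whereas the precursor genes lie on both sides of 0, with CLA1 at -2.31 and -2.03.

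The profile of TPS12 over the 12 libraries was most like those of AT4G13800, PGL1, PLP4, DHAR1 and NF-YC2 among genes tested (Pearson r of log2 CPM 0.996, 0.995, 0.995, 0.994 and 0.992). Each of these had one level in both mutant tissues and another in both Col-0 tissues, a likeness fixed by picking the genes with the highest r. AT4G13800 and PGL1 passed the filter on low counts only through the mutant groups. They averaged 0.0252 and 0.287 CPM in Col-0 seed coat, and 0.0547 and 0.270 CPM in Col-0 embryo. DHAR1, a dehydroascorbate reductase gene, averaged 245.9 ± 5.84 CPM in mutant seed coat against 71.6 ± 2.71 CPM in Col-0, and 244.8 ± 27.0 CPM in mutant embryo against 70.4 ± 3.14 CPM in Col-0 embryo. The profile of CYP71A19 was most like those of TRE1, AT5G01750, AT2G30680, AT2G16890 and CXXS1 (r 0.996, 0.993, 0.993, 0.992 and 0.990). TRE1, the trehalase gene, averaged 92.7 ± 6.21 CPM in mutant seed coat against 11.4 ± 0.658 CPM in Col-0, and 34.4 ± 5.67 CPM in mutant embryo against 0.465 ± 0.283 CPM in Col-0 embryo. TPS12 and CYP71A19 correlated with each other at r = 0.845, which placed CYP71A19 at 1709 in the order of likeness to TPS12. The genes most like CYP71A19 were picked in the same way, so their pattern too was fixed by the choice. The points share their 12 libraries and their 4 groups, and no p is given for them.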

How the data were processed

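The deposited tables hold whole-number read counts per gene for 12 libraries, made by the authors with bcl2fastq 2.19, fastp 0.12.4 and STAR 2.7.9a on TAIR10, per the submitters' processing notes. Per the labels' protocols, libraries were stranded, poly(A)-selected and carried molecular-identifier adaptors. No source used here says whether these served to remove duplicates. The combined table equals the reverse-strand column of the per-library files in all 12. Its 4 summary entries, 6.88% to 14.4% of reads, were left out of library sizes. Depth was 13685009 to 15923520 gene reads in mutant seed coat, 10301817 to 14947969 in Col-0 seed coat, 13927944 to 17619031 in mutant embryo and 14003564 to 15047509 in Col-0 embryo.

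Tests used the quasi-likelihood F test of edgeR 4.0.16 (TMM scaling, filterByExpr with minimum count 10 and minimum total 15) in R 4.3.3, with 4 group means fitted over all 12 libraries. A gene was called at a Benjamini-Hochberg adjusted p under 0.05 over 16238 genes. CPM values were computed from the deposited counts and TMM-scaled library sizes. The workflow was tested on simulated data. Sequences, exon lengths and names came from RefSeq TAIR10.1 (32548 of 32833 entries matched), whose nuclear chromosome lengths equal those of TAIR10.

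The members, gene lists, marker lists and naming rule were chosen with earlier results of these data known. Named genes are the 4 members, their neighbours, up to 2 called genes each way with the smallest p per related list and tissue, the 5 most correlated genes for each expressed member, and DIG2. Embryo and seed coat libraries of the same genotype and replicate number deviated together (r 0.162 to 0.507 in 6 pairs). For the tissue contrasts and the difference, the number within a genotype was used as a block on this correlation alone, since the labels give only a replicate number. Pairs of the same genotype with different numbers gave r -0.442 to 0.225, so the lowest same-number pair was not above the highest of these. Across genotypes the same number gave r -0.467 to 0.016, and different numbers reached r 0.425, above some of the same-number pairs within a genotype. For mutant minus Col-0 the block nevertheless paired the genotypes by number within a tissue, a pairing that no correlation backs. Alternatives were RLE size factors, total reads, counts from both strands, no filter on low counts, DESeq2 1.42.0, a replicate block and leaving out each library.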

Additional observations from a re-analysis of the deposited data

Results flagged for a closer look

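CYP71A19 was picked out because its mutant effect differed between tissues by the test of the difference itself. That difference is formed from the mutant against Col-0 values that the choice of the gene used, so its p is not independent of the choice. Seed coat minus embryo, the difference was log2 -2.06 (edgeR quasi-likelihood test, adjusted p = 0.000217): the gene was 5.37-fold higher in the mutant in the seed coat and 22.3-fold higher in the embryo. With the replicate number as a block it was log2 -2.07 (edgeR adjusted p = 3.01e-06), and without any single library it ranged from -2.33 to -1.93. The ratio of TPS12 to CYP71A19 per kilobase was 1.23 in mutant seed coat and 0.274 in Col-0 seed coat. In the embryo it was 2.12 in the mutant and 2.15 in Col-0. This ratio comes from the same counts of both genes, so it restates the difference without library scaling and is no separate support. The cause of the difference was not tested.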

How the results depend on the processing

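Of 320 alternative values computed, 303 were counted as unchanged. Tissue contrasts and the difference had to keep the direction and the side of the threshold of the value reported. Mutant minus Col-0 values of TPS12 and CYP71A19, which had no threshold, had to keep the direction. They also had to move by less than the gene's largest SD of log2 CPM within a group. Counts had to stay within 1.5 times the reported count. CYP71A19 kept its calls throughout, with leave-one-out ranges of 0.87 to 1.02 (log2) for seed coat minus embryo in the mutant, 2.89 to 3.29 in Col-0 and -2.33 to -1.93 for the difference. The small TPS12 tissue values changed sign, without passing the test: to -0.23 (mutant) and -0.34 (Col-0) with total reads only, and within leave-one-out ranges of -0.088 to 0.29 in Col-0 (-0.088 without Col-0 seed coat library 2) and -0.12 to 0.26 for the difference (-0.04 without mutant embryo 2, -0.01 without Col-0 embryo 2, -0.12 without Col-0 seed coat 3). Total reads alone moved the median of all genes by -0.30 in the seed coat and -0.35 in the embryo for mutant minus Col-0.

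Calls among neighbours were 1 higher in each tissue, 2 with protein-coding neighbours (the second, YUC2, passed the filter only through the mutant), and 1 to 2 in the seed coat leaving out single libraries (2 without mutant seed coat 3). Over the 24 tested genes of the 5 related lists, the embryo gave 13 higher and 2 lower calls, against 7 and 10 with total reads only, and 11 to 14 and 2 to 4 leaving out single libraries (4 without mutant seed coat 1). The seed coat gave 10 higher and 5 lower, with 3 lower without the low-count filter, 3 lower with the replicate block, and 10 to 12 higher and 3 to 5 lower leaving out single libraries (3 lower without mutant seed coat 1, mutant seed coat 2 or Col-0 seed coat 2). The replicate block moved the higher calls of these lists in the embryo to 12 and changed no call of TPS12, CYP71A19 or the neighbours. For the lists and the neighbours this block paired mutant with Col-0 libraries by number, which the correlations did not back. With the block within a genotype, the CYP71A19 tissue contrast was log2 0.97 in the mutant and 3.03 in Col-0. At 27 to 72 reads per Col-0 library, counting error limits the TPS12 level there. The causes of these shifts were not tested.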

Other observations

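A second stretch of chromosome 4 holds terpene synthases beside CYP71A genes, from AT4G20200 to AT4G20240, and was looked at after its values were seen. There too the reads fell on few of the genes. The synthase AT4G20230 had 45 to 66 reads per library in mutant seed coat against 0 to 1 in Col-0, and 15 to 24 in mutant embryo against 0 in Col-0. The P450 next to it, CYP71A28, had 14 to 22 reads per library in mutant seed coat against 2 to 12 in Col-0, a difference that did not pass (log2 1.34, edgeR adjusted p = 0.055). CYP71A28 had 0 to 2 reads per library in both embryo groups, and it passed the filter on low counts only through mutant seed coat. AT4G20210 had at most 2 reads in any library, CYP71A27 at most 1, and AT4G20200 had 0 in all 12.

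NCED6, a gene of abscisic acid synthesis on the endosperm marker list, was higher in the mutant in both tissues. It averaged 12.7 ± 3.24 CPM in mutant seed coat against 2.12 ± 0.944 CPM in Col-0 seed coat (log2 2.62, edgeR adjusted p = 3.33e-05). In the embryo it averaged 20.8 ± 4.92 CPM in the mutant against 0.708 ± 0.328 CPM in Col-0 (log2 4.88, edgeR adjusted p = 4.15e-07). Its mutant mean was thus not higher in the seed coat, which carries the endosperm, than in the embryo.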
